A study of Mus musculus with 3 samples.

Results

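The genes described here are 10 secreted factors that act on the growth of blood and lymph vessels: Vegfa, Vegfb, Vegfc, Vegfd, Pgf, Angpt1, Angpt2, Angptl2, Angptl4 and Hgf. They were chosen by name, all 10 were found among the 56833 genes of the deposited table, and all 10 had reads in every library. The table holds 3 RNA libraries of cells sorted for tdTomato from the ankle synovium, the tissue that lines the joint, of Efhd1CreER; Ai9 mice, and labelled telocytes, an interstitial cell type with long processes. In these mice a Cre recombinase driven by Efhd1 switches on the Ai9 tdTomato reporter, so the sorted cells are those in which Efhd1 had been active at the time of recombination. The cells were kept for 24 h on plates coated with collagen: a soft plate of 0.2 kPa, an intermediate one of 8 kPa or a stiff one of 64 kPa. Genotype, tissue, medium and coating were the same at every level. Age and the number of animals behind each library are not given in the sources used here.

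There was 1 library per level, so no value below has a replicate check, no test was possible and no p-value is given. Differences between plates and differences between cultures cannot be told apart. The libraries held 25487064 to 28081600 reads. Efhd1, which marked the cells, had 10.3 normalized counts on the soft, 4.71 on the intermediate and 3.08 on the stiff plate. Of the other markers used for telocytes, Pdgfra stood at 5118 to 6298, Cd34 at 235 to 318 and Kit at 38.7 to 45.1 normalized counts. The libraries also held RNA of other cell types. The summed level of 12 macrophage markers was 29933 on the soft, 36883 on the intermediate and 64193 normalized counts on the stiff plate, and all 12 were higher in the stiff than in the soft library, with a median log2 ratio of 1.25. The summed level of 4 adipocyte markers was 6052, 5880 and 5016 in the same order. Of the endothelial markers Cldn5 had no read, which allows up to 3 reads or 2.83 to 3.08 normalized counts, Pecam1 had 12.3 normalized counts on the soft, 12.3 on the intermediate and 4.1 on the stiff plate, and Cdh5 had 5.13, 2.83 and 0. Others of the 9 went the other way, such as Kdr with 21.5, 25.5 and 46.1, and the summed level of all 9 was 182.48 on the soft, 229.08 on the intermediate and 199.97 normalized counts on the stiff plate. In bulk RNA, fewer cells of a type and less RNA per cell cannot be told apart.

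The vascular endothelial growth factors are dimeric ligands of receptor tyrosine kinases on endothelial cells. VEGF-A acts mainly through VEGFR2 (Kdr) and drives sprouting of blood vessels, VEGF-B and placental growth factor (Pgf) bind VEGFR1 (Flt1), and VEGF-C and VEGF-D bind VEGFR3 (Flt4) and act on lymphatic vessels after proteolytic cleavage. Angiopoietin 1 (Angpt1) activates the receptor TIE2 (Tek) and stabilises vessels, while angiopoietin 2 (Angpt2) often counters it. The related angiopoietin-like proteins bind other receptors, and hepatocyte growth factor (Hgf), made by mesenchymal cells, acts on epithelial and endothelial cells through MET. Fibroblasts of the synovium are a known source of several of these factors, and VEGF-A takes part in the vessel growth of inflamed joints.

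The genomic sequence just before the annotated start site is given for 4 members: Vegfa, Vegfc and Hgf, because they had the largest differences between libraries, and Angptl4, because its level was nearly the same in all 3. The sequences are of GRCm39 and start sites are those of the Ensembl canonical transcripts in GENCODE vM39. Each runs 5′ to 3′ on the strand of the gene, and only the longest stretch of the 250 bases before the start that lies outside every annotated exon is printed. Capitals mark matches to the GC box GGGCGG or to the hypoxia response element core ACGTG, on either strand. The Vegfa sequence is chr17:46343310-46343559 on the minus strand, that of Vegfc is chr8:54530010-54530256 on the plus strand, that of Hgf is chr5:16758643-16758748 on the plus strand, which lies inside the annotated Hgf gene, whose annotation begins further upstream, and that of Angptl4 is chr17:34000805-34001054 on the minus strand.
Vegfa: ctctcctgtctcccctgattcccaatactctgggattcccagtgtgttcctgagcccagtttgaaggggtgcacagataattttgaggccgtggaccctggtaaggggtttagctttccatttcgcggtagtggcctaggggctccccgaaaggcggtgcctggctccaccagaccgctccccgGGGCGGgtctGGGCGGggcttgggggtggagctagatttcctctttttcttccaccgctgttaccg
Vegfc: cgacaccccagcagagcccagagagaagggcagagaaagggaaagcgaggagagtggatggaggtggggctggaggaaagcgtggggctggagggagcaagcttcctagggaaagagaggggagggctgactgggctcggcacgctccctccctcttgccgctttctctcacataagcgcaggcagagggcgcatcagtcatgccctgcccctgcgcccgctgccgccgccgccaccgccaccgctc
Hgf: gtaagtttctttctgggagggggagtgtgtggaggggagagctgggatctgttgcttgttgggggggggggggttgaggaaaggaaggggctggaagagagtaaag
Angptl4: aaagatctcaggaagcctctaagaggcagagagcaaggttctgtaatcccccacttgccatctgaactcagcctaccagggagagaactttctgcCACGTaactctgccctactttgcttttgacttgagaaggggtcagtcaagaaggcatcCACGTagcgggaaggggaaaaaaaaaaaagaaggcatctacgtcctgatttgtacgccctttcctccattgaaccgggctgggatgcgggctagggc
In the full windows of 250 bases, Vegfa held 2 GC boxes, starting 66 and 56 bases before the start site, and Angptl4 held 2 hypoxia cores, starting 155 and 97 bases before it. GC boxes were also found in the windows of Vegfb, which held 4, and of Angpt2 and Angptl2, which held 1 each. The hypoxia core was also found in the windows of Vegfb, Vegfd and Pgf and was not found in those of Vegfa, Vegfc and Hgf. Of 13877 windows searched in the same way, 20.5% held ACGTG and 47.4% held GGGCGG. Neither the AP-1 site TGANTCA, held by 4.89% of windows, nor the TEAD site GGAATG, held by 11.6%, was found in any of the 10 windows. The CArG box, the site of serum response factor, was found in the window of Angpt1 alone of the 10, and in 1.16% of all windows. These matches describe the letters only and say nothing of binding. Only the 250 bases before each start were searched, so a missing match says nothing of sequence elsewhere.

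The 10 genes were expressed at very different levels. Levels are compared between genes as normalized counts per kb of the canonical transcript, averaged over the 3 libraries. Angptl2, a secreted glycoprotein known from inflamed tissue, stood first at 6774 per kb, above 98.3% of 13878 genes that had a transcript length and averaged 10 normalized counts or more. Vegfa followed at 1731 and Angptl4, an inhibitor of lipoprotein lipase, at 1139 per kb. Vegfd at 808 and Hgf at 534 per kb formed the middle of the order. Below them came Vegfb at 235, Vegfc at 98.3 and Angpt1 at 75.2 per kb. Pgf at 25.9 and Angpt2 at 6.46 per kb stood last, and Angpt2 was above only 4.9% of genes. The ranges over the 3 libraries did not overlap between any 2 neighbours in this order, so the order was the same in each library, although 1 library per level gives no spread between cultures. Vegfc, Hgf and Vegfa varied most over the 3 plates, with coefficients of variation of 21.2%, 20.3% and 19.2%, and Angpt1 least, at 0.447%.

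**Figure D1:**
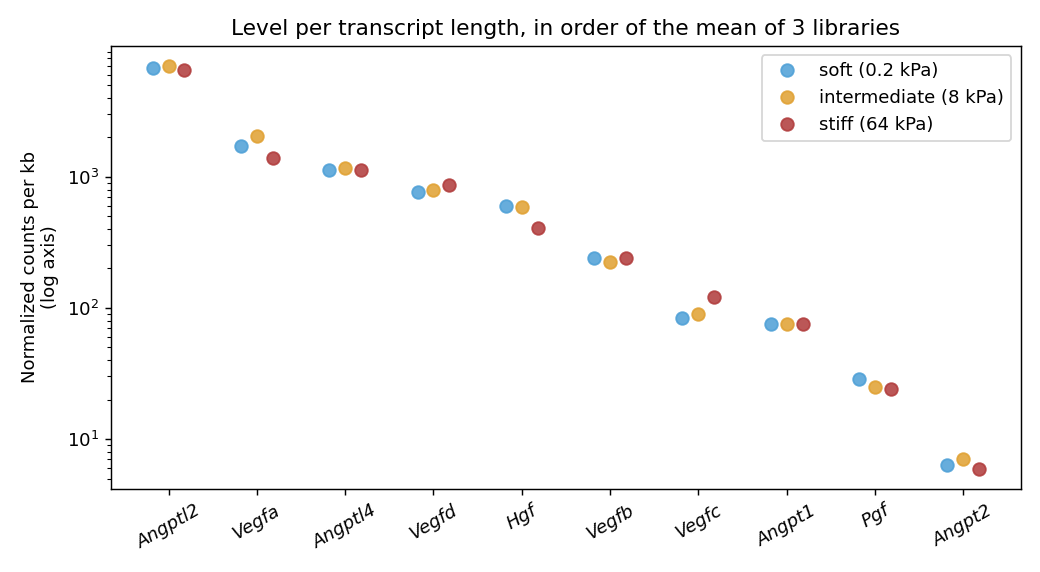
Level of each gene per kb of its canonical transcript (vertical axis, log scale, normalized counts per kb), with genes on the horizontal axis in order of their mean and 1 point per library. The order runs from Angptl2 at 6774 to Angpt2 at 6.46, and the points of neighbouring genes do not overlap.

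The question of the study was whether the stiffness of the plate alters these cells. Between the soft and the stiff plate, the log2 ratio of 2 of the 10 genes reached 0.5 in size: Vegfc was higher and Hgf was lower on the stiff plate. Each of these calls was lost under an alternative: Vegfc was at 0.49 with the libraries scaled by total reads or by their upper quartile, and Hgf at -0.38 with a trend of all genes with transcript length and GC content subtracted. Between the intermediate and the stiff plate, Vegfa and Hgf were lower on the stiff plate by at least 0.5. Between the soft and the intermediate plate no member reached 0.5, and Vegfa had the largest difference. The 7 genes Vegfb, Vegfd, Pgf, Angpt1, Angpt2, Angptl2 and Angptl4 stayed under 0.25 in size in every comparison, though the intervals of Pgf and Angpt2 reach well past 0.5. Log2 ratios are of the normalized count plus 1, stiffer over softer plate, and each interval is an exact 95% Clopper-Pearson interval of the share of reads, which covers counting error only.

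These counts are read against all genes. Of 11873 genes that averaged 50 normalized counts or more, a limit that 9 of the 10 members passed and Angpt2 did not, 11.8% were higher and 3.77% lower by at least 0.5 in the stiff than in the soft library, against 1 and 1 of the 9 members. In the stiff against the intermediate library 5.42% were higher and 3.42% lower, against 0 and 2 of the 9. In the intermediate against the soft library 3.94% were higher and 0.657% lower, against 0 and 0. A log2 ratio of 1 in either direction was reached by 3.6% of genes from soft to stiff, by 0.168% from soft to intermediate and by 1.25% from intermediate to stiff, and by none of the 9 members. The 9 members had a median log2 ratio of -0.01 from soft to stiff, 0.03 from soft to intermediate and -0.04 from intermediate to stiff, beside 0.00, 0.01 and 0.01 for all genes with that mean.

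**Figure D2:**
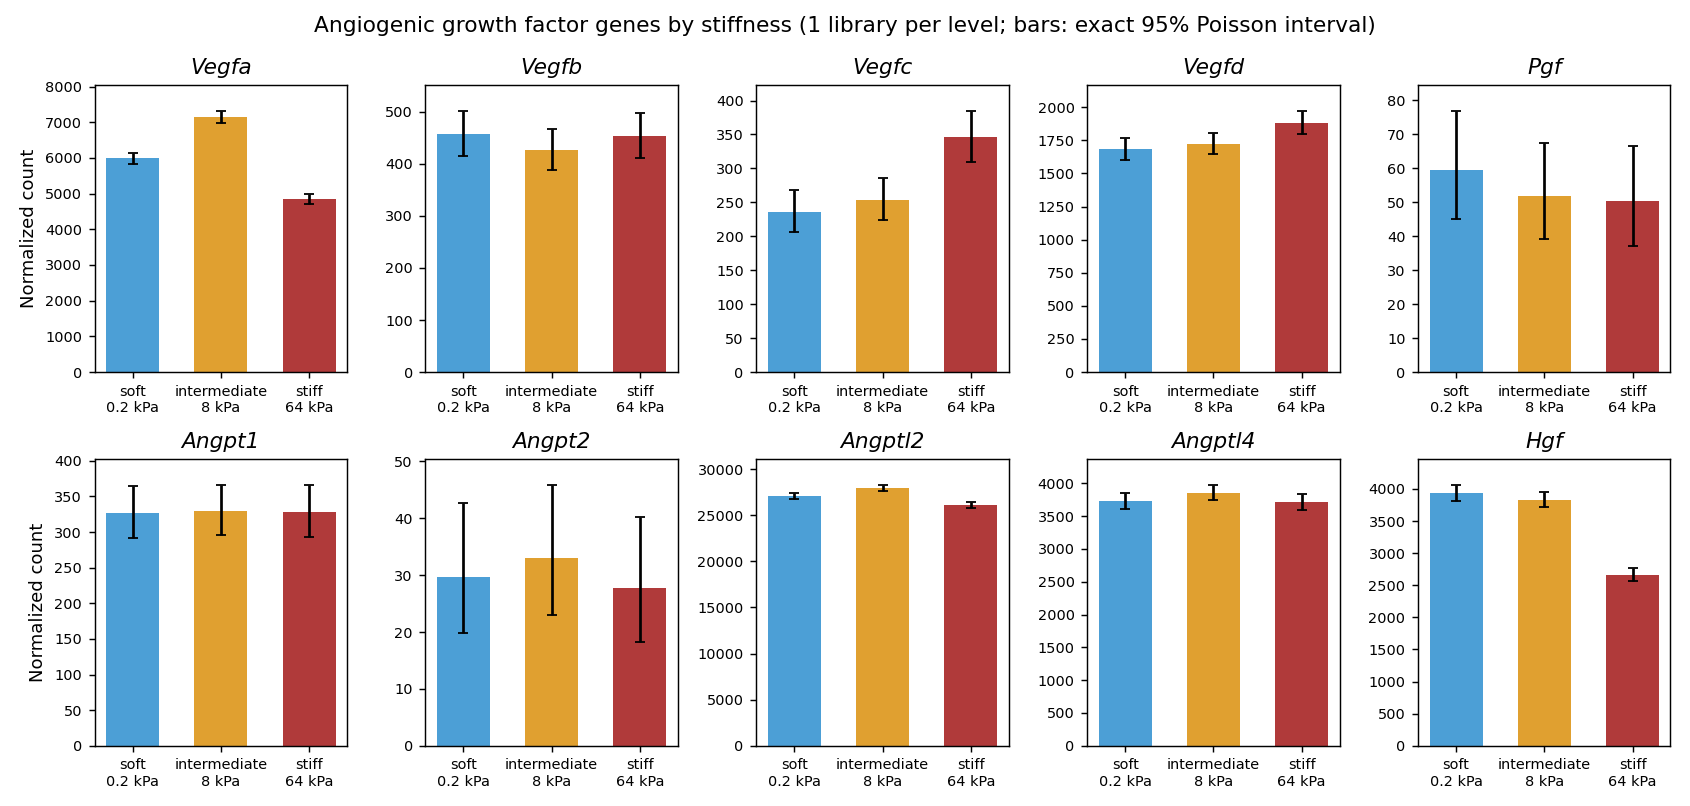
Normalized count of each of the 10 genes (vertical axes start at 0 and differ between panels) in the soft, intermediate and stiff library, with exact 95% Poisson intervals that cover counting error only. Vegfa is highest at 8 kPa, Vegfc is highest and Hgf lowest at 64 kPa, and the intervals of all 3 libraries overlap for Vegfb, Pgf, Angpt1, Angpt2 and Angptl4.

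Positions are those of GRCm39. Vegfa is on the minus strand of chromosome 17, from 46327919 to 46343309, and its canonical transcript has 7 exons. It had 5990 normalized counts on the soft, 7152 on the intermediate and 4847 on the stiff plate. The intermediate library was thus the highest and the stiff library the lowest, so the level did not follow the order of stiffness. The log2 ratio was 0.26 for intermediate to soft (interval 0.21 to 0.31), -0.56 for stiff to intermediate (interval -0.61 to -0.51) and -0.31 for stiff to soft (interval -0.36 to -0.25). Of all genes with a mean of at least 50, 2.54% had a lower ratio of stiff to intermediate than Vegfa. Macrophage markers were higher at both steps, with median log2 ratios of 0.44 and 0.79, and so moved with Vegfa at the first and against it at the second; their part was not tested. Splice forms of Vegfa, which differ in binding to matrix, are not separated in the table.

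Vegfb is on the minus strand of chromosome 19, from 6958447 to 6965127. Its level was 457 on the soft, 426 on the intermediate and 453 normalized counts on the stiff plate. The counting intervals of the 3 values overlap, and the stiff to soft log2 ratio was -0.01 (interval -0.21 to 0.18).

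Pgf, which encodes placental growth factor, is on the minus strand of chromosome 12, from 85213409 to 85224564. It had 58 reads on the soft, 55 on the intermediate and 49 on the stiff plate. The stiff to soft log2 ratio of -0.24 had an interval from -0.82 to 0.33, so no difference was detectable at this depth and one as large as that of Hgf lies within the interval.

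The lymphatic factors Vegfc and Vegfd were both highest on the stiff plate. Vegfc is on the plus strand of chromosome 8, from 54530257 to 54640131, and has 7 exons. It had 236 normalized counts on the soft, 254 on the intermediate and 346 on the stiff plate. Most of its difference lay in the second step: the log2 ratio was 0.10 for intermediate to soft (interval -0.15 to 0.37) and 0.45 for stiff to intermediate (interval 0.21 to 0.68). Stiff to soft the ratio was 0.55 (interval 0.31 to 0.80), or 1.46-fold. With the libraries scaled by total reads or by their upper quartile it was 0.49, which no longer reaches 0.5. The 12 macrophage markers were also higher on the stiff plate, by a median of 1.25, and their part in the result was not tested.

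Vegfd is on the plus strand of chromosome X, from 163156240 to 163185646. It had 1685 normalized counts on the soft, 1725 on the intermediate and 1883 on the stiff plate. The difference was smaller than that of Vegfc, with a stiff to soft log2 ratio of 0.16 (interval 0.06 to 0.26), which was 0.27 after subtraction of the trend of all genes with transcript length and GC content.

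Shares within the family do not depend on how the libraries are scaled. Of the reads of the 5 genes Vegfa, Vegfb, Vegfc, Vegfd and Pgf, Vegfa took 71.1% on the soft plate (interval 70.1% to 72.1%), 74.4% on the intermediate plate (interval 73.6% to 75.3%) and 64.0% on the stiff plate (interval 62.8% to 65.0%). Vegfc and Vegfd together took 22.8% on the soft, 20.6% on the intermediate and 29.4% on the stiff plate (interval 28.4% to 30.5%). Of the 3 plates, the stiff one thus had the largest share for the lymphatic factors and the smallest for Vegfa. Of the reads of Vegfc and Vegfd alone, Vegfc took 12.3%, 12.8% and 15.5% in order of stiffness, and the interval of the stiff library, 14.0% to 17.1%, overlapped that of the intermediate library, 11.4% to 14.3%, but not that of the soft library, 10.8% to 13.8%.

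**Figure D3:**
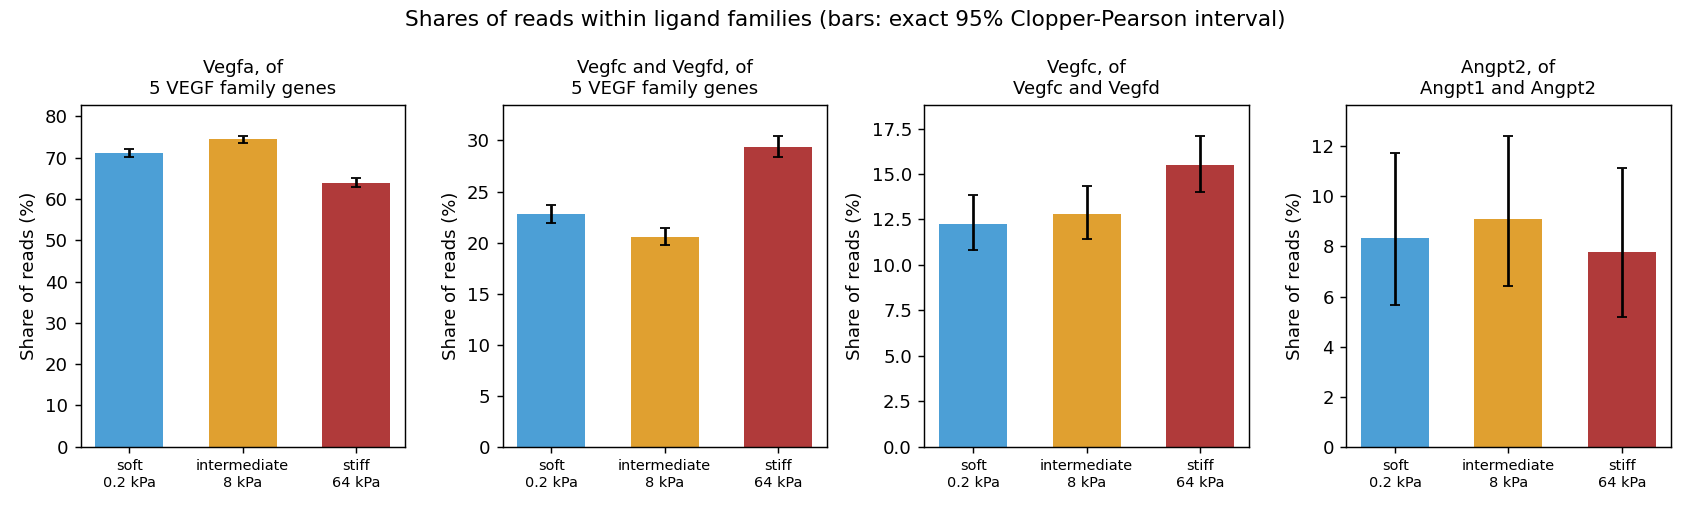
Share of reads (vertical axes in percent, starting at 0) that Vegfa, Vegfc with Vegfd, Vegfc within that pair, and Angpt2 take within their ligand family in each library, with exact 95% Clopper-Pearson intervals for counting error. Vegfa takes 64.0% of its family in the stiff library against 74.4% in the intermediate one, and the Angpt2 intervals overlap throughout.

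Angpt1 is on the minus strand of chromosome 15, from 42288058 to 42540417. It had 327 normalized counts on the soft, 330 on the intermediate and 328 on the stiff plate. The 3 values were nearly equal, and the interval of the stiff to soft log2 ratio, -0.22 to 0.23, bounds what the depth leaves possible. That ratio was 0.0049, or 0.14 with the length and GC trend subtracted. Up to 815 bases of a single Angpt1 exon are shared with exons of Gm17473 on the other strand, which had at most 2.05 normalized counts. Shorter antisense overlaps, of 64 bases for Vegfa and 300 bases for Vegfc, were not analysed here.

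Angpt2 is on the minus strand of chromosome 8, from 18739202 to 18791603. It had 29 reads on the soft, 35 on the intermediate and 27 on the stiff plate. The stiff to soft log2 ratio was -0.10 (interval -0.91 to 0.70). Exons of Mcph1 on the opposite strand overlap those of Angpt2, by up to 3023 bases for 1 exon. Mcph1 had 442 to 494 normalized counts, and the strand setting of the counting is not given in the sources used here, so the low Angpt2 counts are uncertain. Of the reads of the 2 angiopoietins, Angpt2 took 8.33% on the soft, 9.09% on the intermediate and 7.78% on the stiff plate, with overlapping intervals.

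Angptl2 is on the plus strand of chromosome 2, from 33105946 to 33138252. Its normalized count was 27113 on the soft, 27979 on the intermediate and 26137 on the stiff plate. At 25487 reads or more per library even small differences exceed counting error: the stiff to intermediate log2 ratio was -0.10 (interval -0.12 to -0.07). The stiff to soft ratio of -0.05 became -0.17 with the length and GC trend subtracted.

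Angptl4 is on the minus strand of chromosome 17, from 33992724 to 34000804. It had 3731 normalized counts on the soft, 3857 on the intermediate and 3712 on the stiff plate. The stiff to soft log2 ratio was -0.01, with an interval from -0.07 to 0.06 around it.

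Hgf is on the plus strand of chromosome 5, from 16758041 to 16828178, and its canonical transcript of 6516 bases has 18 exons and a GC content of 35.9%. It had 3938 normalized counts on the soft, 3835 on the intermediate and 2664 on the stiff plate. The soft and intermediate libraries were close, with a log2 ratio of -0.04 (interval -0.10 to 0.03), and the stiff library was the low one. The log2 ratio was -0.56 for stiff to soft (interval -0.64 to -0.49), a level 0.677 times that of the soft library, and -0.53 for stiff to intermediate (interval -0.60 to -0.45). In these libraries the ratios of all genes moved with transcript length and GC content, and the fitted trend for a transcript like that of Hgf was -0.19 between stiff and soft. With that trend subtracted the ratios were -0.38 and -0.41, which do not reach 0.5. Where Hgf was lower, macrophage markers were higher, by a median of 1.25 between stiff and soft, and the 4 adipocyte markers were lower, by a median of -0.28, and their part in the result was not tested.

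**Figure D4:**
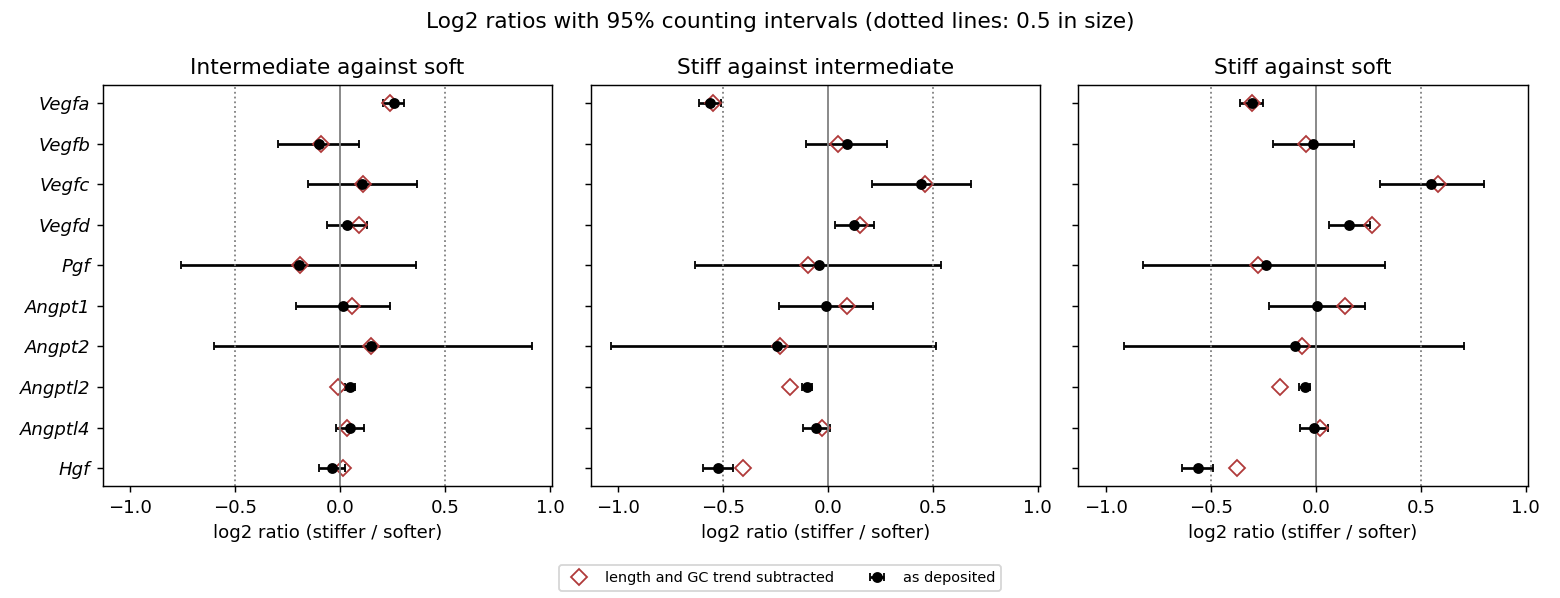
Log2 ratios of the 10 genes (horizontal axis, stiffer over softer plate) in the 3 comparisons, with 95% counting intervals in black and the value with the length and GC trend subtracted as an open diamond. Vegfa and Hgf lie below -0.5 between stiff and intermediate, Vegfc above 0.5 between stiff and soft, and the diamond of Hgf lies inside the dotted lines at 0.5.

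Other genes with the same course over the 3 plates were looked for among 10623 named genes averaging 100 normalized counts or more, by distance in the log2 ratios of the 2 steps. Nearest to Vegfc were Klhl18, Celf4 and Ccdc102a, at distances of 0.0019, 0.012 and 0.014. Nearest to Hgf were Klhl24, Ttc26 and Dync2li1, at 0.019, 0.019 and 0.025. Within a distance of 0.05 there were 32 genes for Vegfc and 13 for Hgf, so these courses are shared by other genes. The counting intervals of the ratios of Vegfc and Hgf are wider than these distances, so which genes are nearest is not resolved.

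The other genes of these pathways were counted where they passed a mean of 10 normalized counts. Of 14291 such genes, 13.4% were higher and 6.89% lower by at least 0.5 in the stiff than in the soft library, 6.05% and 3.51% in the intermediate than in the soft library, and 7.9% and 6.14% in the stiff than in the intermediate library. The median log2 ratio of all of them was 0.00 between stiff and soft. With the trend subtracted, which 13878 of them allowed, the shares in the same order were 10% and 6.55%, 4.43% and 3.24%, and 7.18% and 5.73%. Members of a list are not replicates, and each list is given as a description.

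The receptors of the VEGF family were mostly higher on the stiff plate. Of 5 receptors and co-receptors, 4 were higher by at least 0.5 between stiff and soft and none was lower, with a median log2 ratio of 0.59. Nrp1, a co-receptor of VEGF-A that fibroblasts also carry, had 2831 normalized counts on the soft, 3317 on the intermediate and 4131 on the stiff plate, with a ratio of 0.55 (interval 0.48 to 0.62). Nrp2, a co-receptor of VEGF-C, had 5579, 6572 and 6157 in that order. The signalling receptors were rare: Flt1 had 10.3, 19.8 and 25.6, Kdr 21.5, 25.5 and 46.1, and Flt4 29.7, 37.7 and 45.1 normalized counts, and the interval of Flt4 included 0. With the trend subtracted the ratio of Flt4 was 0.10 and that of Nrp1 0.45, so 2 of the 5 then reached 0.5. In each of the 2 steps taken alone 1 of the 5 was higher by at least 0.5 and none lower. Macrophage markers moved the same way as the receptors, by a median of 1.25 between stiff and soft, and their part was not tested.

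Among the 5 genes that process VEGF-C and VEGF-D, 1 was higher by at least 0.5 between stiff and soft and none lower, with a median of 0.04 that was -0.29 with the trend subtracted. Furin, a convertase that cleaves the precursors, had 3054 normalized counts on the soft, 3825 on the intermediate and 4649 on the stiff plate, a log2 ratio of 0.61 (interval 0.54 to 0.67) that was 0.09 with the trend subtracted. Ccbe1, the cofactor of VEGF-C cleavage, had 5079, 5186 and 4189, with a ratio of -0.28. Adamts3, the protease it assists, had 10.3 to 18.9 normalized counts. Substrate and processing genes thus did not share 1 course: Vegfc and Furin were highest and Ccbe1 lowest on the stiff plate.

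Of the angiopoietin receptors only Tek, the receptor TIE2, passed the mean of 10, at 13.3 on the soft, 20.7 on the intermediate and 21.5 on the stiff plate. Tie1 and Ptprb had 2 reads or fewer in each library. Of the 5 further angiopoietin relatives Angptl8 had 1 read at most in each library. Angptl1 had 5.13, 11.3 and 15.4 normalized counts and so passed only through the libraries where it was high, so no count or median of the list is given. Angptl6 had 43.1, 49.0 and 57.4 (interval of the ratio -0.19 to 1.03). The summed level of the 5 was 841 on the soft and 700.4 normalized counts on the stiff plate. Angptl7, known from the cornea and the eye's outflow tissue, had 12.3 normalized counts on the soft, 20.7 on the intermediate and 94.3 on the stiff plate, a log2 ratio of 2.84 (interval 2.07 to 3.94). Angpt4, the remaining angiopoietin, had 780, 707 and 532, a ratio of -0.55 (interval -0.72 to -0.39). Per kb Angpt4 stood at 288, above Angpt1 and Angpt2.

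Of the genes for proteins through which ANGPTL2 and ANGPTL4 act, 2 of the 4 that passed were higher by at least 0.5 between stiff and soft and none lower, with a median of 0.47. Only 1, Pirb, was higher by at least 0.5 once the trend was subtracted. Itga5, a subunit of the integrin that binds ANGPTL2, had 10131 normalized counts on the soft, 13089 on the intermediate and 17047 on the stiff plate, a log2 ratio of 0.75 that was 0.46 with the trend subtracted. Pirb, a receptor of myeloid cells, had 337, 421 and 736, a ratio of 1.12 close to that of the macrophage markers. Lpl, the lipase that ANGPTL4 inhibits, had 4073, 5048 and 4639 and a ratio of 0.19, and Gpihbp1, its endothelial anchor, had no read.

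Of the HGF pathway genes 4 of 6 passed, and none of these differed by 0.5 between stiff and soft. Met, the receptor, had 441 normalized counts on the soft, 458 on the intermediate and 558 on the stiff plate, a log2 ratio of 0.34 (interval 0.15 to 0.53), so ligand and receptor lay on opposite sides of 0. Spint1, an inhibitor of HGF activation, had 64.1 to 68.7. Spint2, another one, had 21.5, 10.4 and 16.4, with an intermediate to soft ratio of -0.99 (interval -2.25 to 0.06). The activators St14, Hgfac and Hpn had 14.1 normalized counts or fewer.

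Among 16 other ligands with a known action on vessels, 6 were higher and 3 lower by at least 0.5 between stiff and soft, with a median of 0.10. After subtraction of the trend 6 were higher and 1 lower, with a median of 0.062. From soft to intermediate 1 was higher and 1 lower, and from intermediate to stiff 5 were higher and 1 lower. The same steps gave 0 higher and 1 lower, and 3 higher and 0 lower, once the trend was subtracted. Over the genes with a mean of at least 50 the median was 0.20 between stiff and soft and 0.31 between stiff and intermediate, the latter against 0.20 over all 16. Adm, which encodes adrenomedullin, had 1628 normalized counts on the soft, 1266 on the intermediate and 3728 on the stiff plate, a course opposite to that of Vegfa at both steps. Ccn2 had 23626, 22575 and 54585, and Ccn1 12272, 12518 and 22746, and both are matricellular proteins known as targets of YAP. Fgf7, a factor for epithelial cells that like Hgf comes from mesenchyme, had 16337, 15568 and 11152, a log2 ratio of -0.55 that was -0.30 with the trend subtracted, and Fgf2 had 18782, 18941 and 14073, a ratio of -0.42. Cxcl12 and Igf1 had ratios of 0.70 and 0.65. These members of the list did not move as 1 group.

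Among 9 inhibitors of vessel growth 2 were higher and 2 lower by at least 0.5 between stiff and soft, with a median of 0.27 that was 0.027 with the trend subtracted. Col18a1, which encodes the precursor of endostatin, went from 0.27 to -0.38 by that subtraction. Thbs1, the most abundant secreted inhibitor of the list after Sparc in normalized counts per kb, at 19597 per kb, had a ratio of 0.43 that was 0.21 with the trend subtracted, and its relative Thbs2 one of -0.62. Timp3 had a ratio of 0.61, while Serpinf1, which encodes PEDF, had 35730, 35683 and 35626 normalized counts.

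Hypoxia raises Vegfa and Angptl4 in many cells, and genes of that response were counted for this reason. Of 10 hypoxia targets 1, Ndrg1, was higher by at least 0.5 between stiff and soft and none was lower, with a median of 0.09. Ndrg1 went from 0.56 to 0.42 when the trend was subtracted, and none of the 10 then reached 0.5. Slc2a1, the glucose transporter, had 7434 normalized counts on the soft, 7943 on the intermediate and 8064 on the stiff plate, and Ddit4 had 4110, 3696 and 3085. None of these 10 targets differed by 0.5 in either step taken alone. The 10 do not include Adm and Egln3, which were counted in other lists. Their stiff to soft ratios were 1.19 and 0.57, or 1.30 and 0.53 with the trend subtracted. Between stiff and intermediate they were 1.56 and 0.59. Of the 8 hypoxia factors and hydroxylases 2 were higher by at least 0.5 and none lower, with a median of 0.13 that was 0.044 with the trend subtracted. Hif1a had 7212, 7048 and 7012, Epas1 had 81.0, 118 and 154, and Egln3 had 601, 593 and 893. Among 7 PPAR factors and targets, which include regulators of Angptl4, 1 was higher by at least 0.5 between stiff and soft. It was Ppard, at 0.64, and none was lower. The median was 0.098, but -0.030 over genes with a mean of at least 50. Ppara averaged 10 although it had 8.48 on the intermediate plate. With the trend subtracted Ppard was at 0.46, so none reached 0.5, and the median was -0.054.

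**Figure D5:**
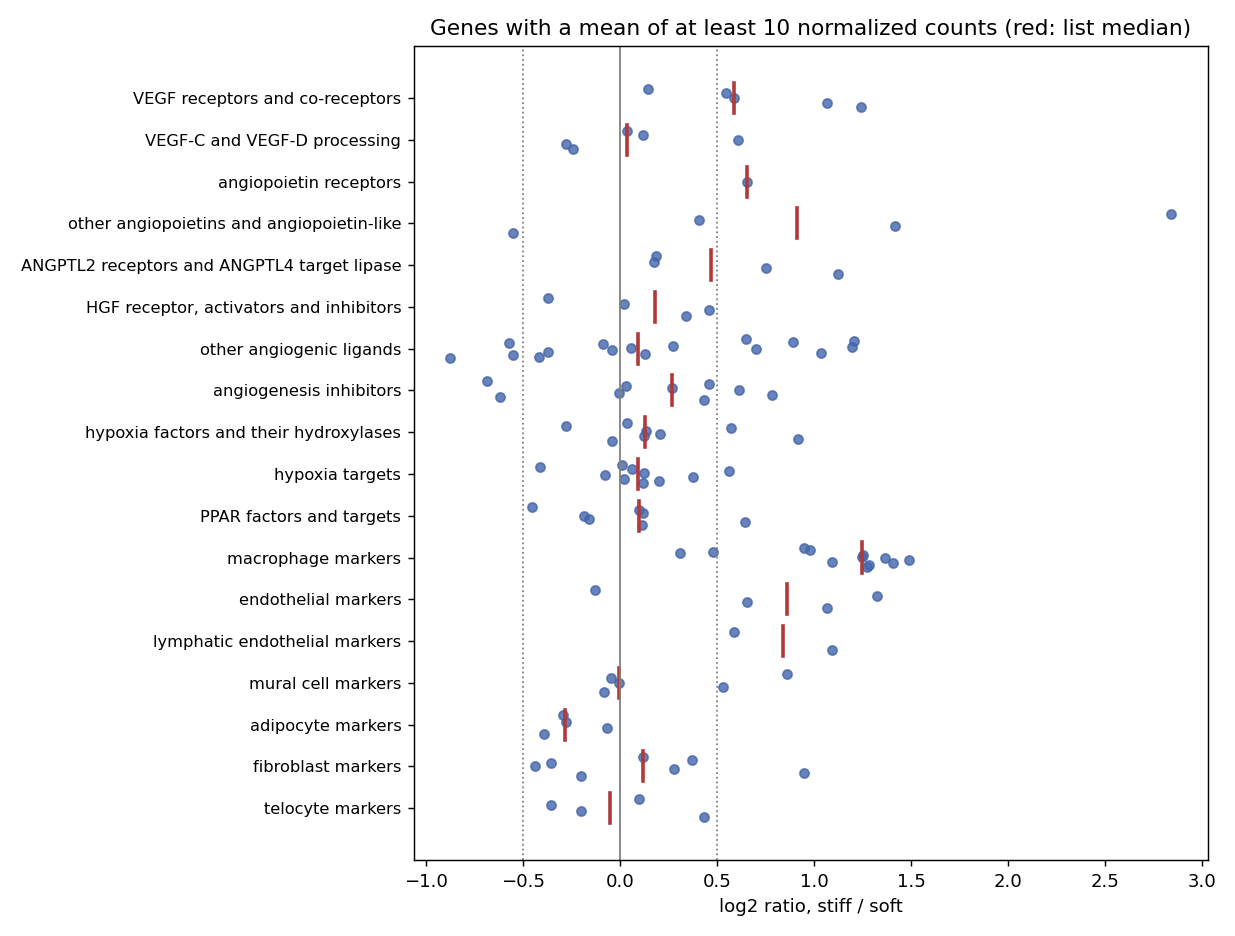
Log2 ratio of stiff to soft (horizontal axis) for each gene averaging 10 normalized counts or more in 18 gene lists (rows), with list medians as red bars and dotted lines at 0.5 in size. Macrophage markers have a median of 1.25, VEGF receptors and co-receptors of 0.59 and hypoxia targets of 0.09. Vwf, Prox1, Angptl1 and St14 are drawn because they averaged 10 through the libraries where they were high, so the medians of their lists are not read.

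For the remaining cell type lists between stiff and soft, 1 of 7 fibroblast markers, Col1a1, was higher by at least 0.5 and none lower, with a median of 0.12. Col1a1 went from 0.95 to 0.44 when the trend was subtracted, so none reached 0.5, and the median was 0.0082. The 4 telocyte markers that passed had a median of -0.05, or -0.16 with the trend subtracted and -0.20 over those with a mean of at least 50, and none of them differed by 0.5. Efhd1, at a ratio of -1.46 (interval -4.24 to 0.22), and Gli1, at -0.15, did not pass. Of the mural cell markers 5 of 8 passed, with 2 of these higher and none lower, and Higd1b had no read. Abcc9, with 13.3, 7.54 and 2.05 normalized counts, a ratio of -2.23 (interval -5.89 to -0.56), did not pass and was above 10 in the soft library only. Kcnj8 had 4.1, 0 and 1.03. With the trend subtracted 1 was higher by at least 0.5, Mcam, which went from 0.86 to 0.74. The 1 that was lower was Notch3, which went from -0.05 to -0.83. Cspg4 went from 0.53 to -0.23, and the median from -0.0062 to -0.23. The 4 adipocyte markers had a median of -0.28, with none past 0.5 in size. The 9 endothelial and 3 lymphatic markers are given without a count of calls, since which of them pass the mean of 10 depends on their change. Vwf had 5.13 normalized counts on the soft, 12.3 on the intermediate and 14.4 on the stiff plate and passed, while Pecam1 did not. Pecam1 had a ratio of -1.38 on 12 against 4 reads (interval -3.67 to 0.14), and Cdh5 had 5 reads on the soft and 0 on the stiff plate. Prox1 had 7.18, 22.6 and 16.4, and the ratio of Flt4 went from 0.59 to 0.10 with the trend subtracted. All genes of these 2 lists stood at under 50 normalized counts except Egfl7, which had 121, 146 and 111. The part of these cells in the results above was not tested.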

How the data were processed

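RNA of 3 libraries, 1 per stiffness level, was sequenced from stranded mRNA libraries. The deposited signal values are gene counts that the authors divided by 1 size factor per library. STAR 2.7.9a, featureCounts of Subread 2.0.1, DESeq2 1.34.0 and the build GRCm39 are named in the submitters' processing notes. The annotation and strand setting are not given in the sources used here. The 3 deposited files held identical values, so 1 was read, and columns were assigned by sample title. Every value was a whole multiple of its column's smallest positive value, within 0.0001 reads, so whole reads were recovered. A count test needs replicates and was not run.

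Log2 ratios used a pseudocount of 1, which understates the change of low genes. Amplified reads are not independent molecules, so intervals cover counting error only. Named genes were the 10 members, the genes of 18 lists, and the 3 genes nearest in course to the members with the highest and the lowest ratio. Mcph1 and Gm17473 are named because their exons overlap those of members. Genes that had stood in the lists, 2 in all, were removed and are not reported here. The members and lists were chosen with earlier results of these data known. Coordinates, lengths and GC contents came from GENCODE vM39 on GRCm39 by symbol, for 13878 of the 14291 genes averaging 10 or more. The trend with length and GC content was fitted locally and robustly to the 300 genes nearest in both. The fit and the counting were tested on simulated data. Scripts ran in Python 3.11.15 with scipy 1.17.1, numpy 2.4.6, pandas 2.3.3 and matplotlib 3.10.9.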

Additional observations from a re-analysis of the deposited data

How the results depend on the processing

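With 1 library per level, leaving out a replicate was not possible. No paired analysis was possible because each level had 1 library. Alternatives were pseudocounts of 0.1 and 10, 3 other scalings, other thresholds, and subtraction of the length and GC trend. Of 30 ratios of the members, 23 stayed within their counting error under every alternative. The others were the 3 ratios of Angptl2, 2 of Hgf and the stiff to soft ratios of Vegfa and Vegfd, none of which changed sign except that of Angptl2 between intermediate and soft, at -0.009 with the trend subtracted. Sign changes occurred in 7 ratios in all, the largest of them 0.045 in size as deposited. The number of members past 0.5 between stiff and soft went from 2 to 1 with scaling by total reads, which leaves Hgf, and to 1 with the trend subtracted, which leaves Vegfc, and to 0 at a log2 ratio of 1. Between stiff and intermediate it went from 2 to 1 with the trend subtracted, which leaves Vegfa, and to 0 at a log2 ratio of 1. Between intermediate and soft it went from 0 to 1, Vegfa, at a log2 ratio of 0.25.

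Of 48 list medians some left their counting error. With the trend subtracted, the stiff to soft medians were -0.29 for VEGF-C and VEGF-D processing, 0.36 for the ANGPTL2 and ANGPTL4 list, 0.027 for inhibitors of vessel growth, -0.23 for mural cell markers, 0.0082 for fibroblast markers and -0.054 for PPAR genes. The intermediate to soft medians were then -0.030 for inhibitors and -0.070 for mural cell markers, and the stiff to intermediate medians 0.17 for the ANGPTL2 and ANGPTL4 list, 0.17 for inhibitors and -0.25 for mural cell markers. With scaling by total reads they were 0.41 for the ANGPTL2 and ANGPTL4 list, 0.21 for inhibitors and 0.063 for fibroblast markers between stiff and soft, and 0.20 for inhibitors between stiff and intermediate. With a mean of at least 50 the inhibitors stood at 0.053 between stiff and intermediate and the PPAR genes at -0.030 between stiff and soft. For these values the cause was not tested. Depth limits Pgf and Angpt2, at 27 to 58 reads.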
